A study of Homo sapiens with 6 samples.

Results

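The AP-1 and early growth response factors examined here are 10 genes given by symbol: JUN, JUNB and JUND of the Jun family, FOS, FOSB, FOSL1 and FOSL2 of the Fos family, ATF3, and the zinc finger genes EGR1 and EGR3. They are 10 of the 62696 genes counted in each library and 10 of the 18569 that were expressed highly enough to be tested, so every member passed the filter on low counts. RNA came from 12Z, an established line of epithelial cells that originated in endometriosis tissue, at passage 40. Each of the 6 libraries came from cells transfected by lipofection with small interfering RNA (siRNA), a short double-stranded RNA that directs the decay of matching transcripts, and harvested after 72 h. Controls received a commercial control siRNA and gave 3 libraries, lettered A to C. The other 3 libraries, also lettered A to C, came from cells given the single siRNA LINC01638_2, which targets the long non-coding RNA LINC01638. All 6 libraries therefore share the cell line, the passage and the transfection, and nothing among them separates the effect of losing LINC01638 from other effects of that siRNA.

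AP-1 is a family of transcription factor dimers that bind DNA through a basic region and pair through a leucine zipper. Jun proteins can pair with each other, whereas Fos proteins need a Jun partner. ATF3 is a stress-induced relative that also pairs with Jun proteins, and EGR proteins bind GC-rich sites through zinc fingers. Most of these genes are immediate early genes: growth factors and stress switch them on within minutes through the ERK, JNK and p38 kinases and serum response factor (SRF), and their transcripts are short-lived. JUN, FOSL1 and FOSL2 are also known for sustained expression in migrating and mesenchymal-like cells.

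Counts on the transcribed strand came to between 45617234 and 58148664 per library; the first principal component of log2 CPM carried 68.8% of the variance. LINC01638 was counted 407, 334 and 414 times in the 3 controls and 125, 103 and 123 times with LINC01638 siRNA, so the target was lower in every library labelled with its siRNA. The genes of the study's title also differed, with RHOB lower (log2 fold change −1.97) and HDAC1 higher (1.06). Epithelial keratins were abundant, with KRT8 between 1675 and 2695 CPM (counts per 1000000 counts after scaling), but EPCAM averaged 0.377 CPM under control siRNA and 1.38 CPM under LINC01638 siRNA, and CLDN4 stayed below 1 CPM. The summed level of 9 epithelial markers lay at 5246 to 5690 CPM under control siRNA and at 3219 to 3747 CPM under LINC01638 siRNA, and that of 6 stromal fibroblast markers was 4665 to 5583 and 3551 to 3816 CPM. Of these, 7 epithelial markers were lower and 1 higher, and 5 stromal markers were lower and 1 higher. Of 6 immune markers 5 stayed below 1 CPM in every library, among them PTPRC, with CD3E at 0, and the exception was CD14 at 34.1 to 52.9 CPM. All 5 mesothelial markers fell, from a sum of 611 to 703 CPM down to 359 to 409.8 CPM, and endothelial and smooth muscle markers summed to at most 15.4 CPM. Reads that met no annotated exon on the counted strand took 8.32% to 10.1% of mapped reads with control siRNA and 12.1% to 15.1% with LINC01638 siRNA. The part that these shifts play in the values below was not tested. In RNA from a whole culture, fewer cells with a transcript and less of it per cell cannot be told apart.

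With LINC01638 siRNA 8 of the 10 factors fell, 1 rose and 1 did not pass the test. Over all 18569 genes tested, 29.6% fell, 26.3% rose and 56% passed in either direction, at an adjusted p below 0.05 in edgeR's quasi-likelihood test. JUN, EGR1 and EGR3 fell more than 2-fold, JUNB, FOS and FOSL2 by less, and JUND and FOSL1 least, while ATF3 rose. The median log2 fold change of the 10 factors was −0.58, against −0.0014 for all genes tested. Because the members were chosen with earlier results of these data known, their contrast with all genes is a description and not a test. The 3 control values lay wholly apart from the other 3 for 8 of the 10 factors, and for 61.5% of all genes tested. Scaling by library totals alone moved the median of all genes to 0.10 and their split from 5503 lower and 4887 higher to 4288 lower and 6349 higher. Under that scaling 6 of the factors fell and 1 rose. The labels name the replicates without saying that they were separate cultures, so p-values rest on library-to-library spread that could be wholly technical.

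**Figure D1:**
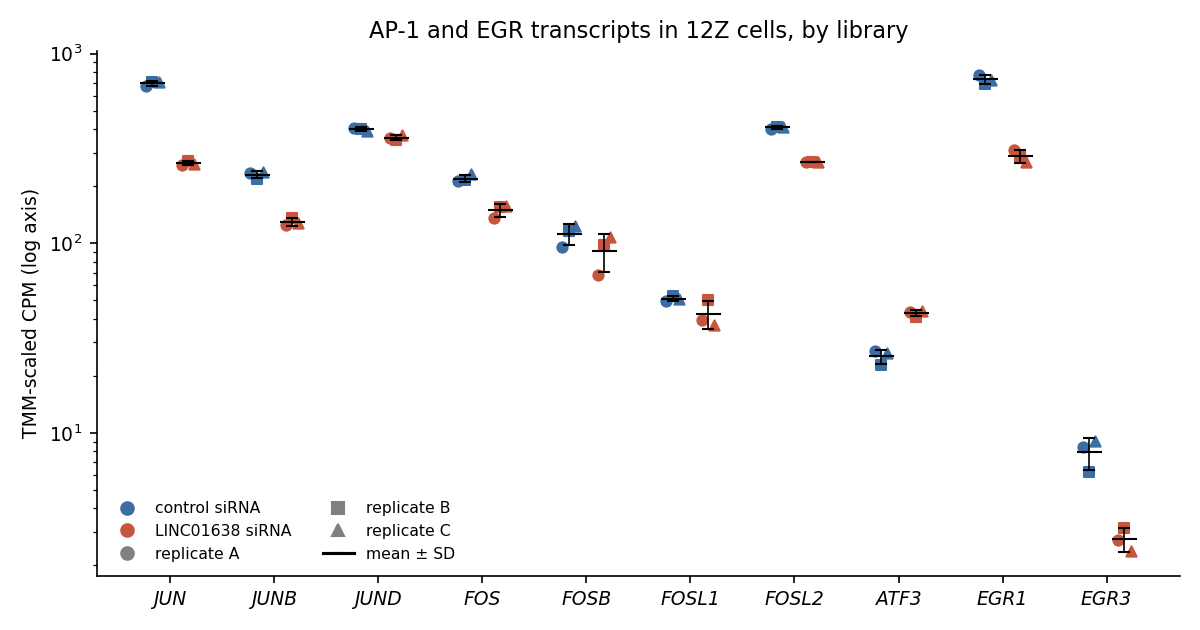
Level of each AP-1 and EGR transcript in CPM on a log axis. Each symbol is 1 library (circle A, square B, triangle C; blue control siRNA, red LINC01638 siRNA) and bars give mean ± SD of 3 libraries. The groups lie apart for JUN, EGR1, EGR3 and ATF3 and overlap for FOSB and FOSL1.

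**Figure D2:**
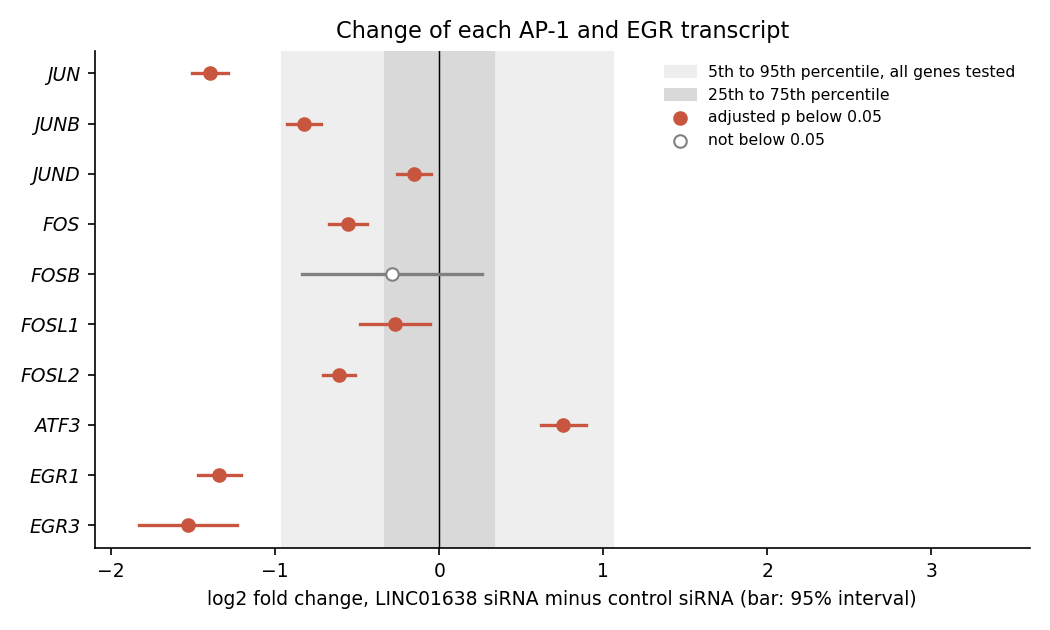
Log2 fold change of each factor, LINC01638 siRNA minus control siRNA, with its 95% interval from the edgeR fit. Filled points passed an adjusted p of 0.05, and the grey bands give the spread of all genes tested, from −0.96 to 1.06 (5th to 95th percentile) and from −0.33 to 0.33 (25th to 75th). JUN, EGR1 and EGR3 lie below both bands, and ATF3 is the factor on the right.

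JUN encodes c-Jun, the founding AP-1 subunit and a strong activator. In the order A, B, C, the 3 controls held 672, 711 and 706 CPM of JUN and the LINC01638 siRNA libraries 259, 270.3 and 263 CPM; all later values keep this order. The highest library with LINC01638 siRNA lay far below the lowest control, and the spread within each group was 3.09% and 2.16% of its mean. JUN fell by 62.1%, from 696 ± 21.5 to 264 ± 5.69 CPM (mean ± SD, n = 3 each), which is −1.40 on the log2 scale (SE 0.0515, edgeR adjusted p = 8.67e-14). Among the 10864 genes that averaged 5 CPM or more, 79 had a log2 fold change as low as that of JUN, itself included. JUN (ENSG00000177606.8) is an intronless gene on the minus strand of chromosome 1, from 58780788 to 58784327 on GRCh38.

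JUNB, a subunit that activates more weakly and can oppose c-Jun (ENSG00000171223.6, chr19:12791496-12793315, plus strand), stood at 234, 219 and 236 CPM in the 3 controls and at 124, 136 and 128 CPM with LINC01638 siRNA. The groups were again apart. JUNB fell by 43.5% (log2 change −0.82, with SE 0.0510, edgeR adjusted p = 6.76e-11). JUND, the subunit that is usually expressed steadily rather than induced (ENSG00000130522.6, chr19:18279760-18281622, minus strand), stood at 407, 402 and 392 CPM in the 3 controls and at 359, 349 and 369.8 CPM with LINC01638 siRNA. Its groups did not overlap, but the gap between them was narrow. JUND fell by 10.2% (log2 change −0.15, with 95% interval −0.26 to −0.051, edgeR adjusted p = 0.0117), and this call was lost under scaling by library totals (−0.05, adjusted p = 0.378).

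Ratios between members within a library do not depend on how libraries are scaled, so they show whether subunits changed by different amounts. The log2 ratio of JUN to JUND was 0.724, 0.825 and 0.850 in the 3 controls and −0.472, −0.368 and −0.492 with LINC01638 siRNA. JUN counts thus exceeded JUND counts in all 3 control libraries and were below them in all 3 others, a difference of −1.24 (SE 0.0542, exact two-sided permutation p = 0.1, adjusted p = 0.14 over 7 pairs compared). With 3 libraries against 3, 0.1 is the smallest p that this test allows. The ratios of JUNB to JUND and of JUN to JUNB also differed, by −0.67 (SE 0.0722) and −0.57 (SE 0.0573), with no overlap between groups and the same exact p = 0.1.

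To compare levels between genes, counts were divided by the length of the annotated exons. On that scale JUN made up 36.6% ± 1.09 of the Jun family with control siRNA and 22.0% ± 0.470 with LINC01638 siRNA (n = 3 each, exact two-sided permutation p = 0.1). JUND made up 39.9% ± 0.883 and 56.9% ± 1.40, and JUNB 23.5% ± 0.946 and 21.0% ± 0.949. On that scale JUND was thus the most abundant Jun transcript in every library of both groups. Its lead over JUN was narrow in the control libraries and wide in all 3 LINC01638 siRNA libraries. The order rests on annotated exon lengths of 3540 bases for JUN and 1863 for JUND. A shorter length for JUN could reverse it in control libraries. The family summed to 537 ± 1.65 CPM per kb with control siRNA and 339 ± 4.48 with LINC01638 siRNA, 37.0% lower and without overlap (n = 3 each, exact two-sided permutation p = 0.1).

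**Figure D3:**
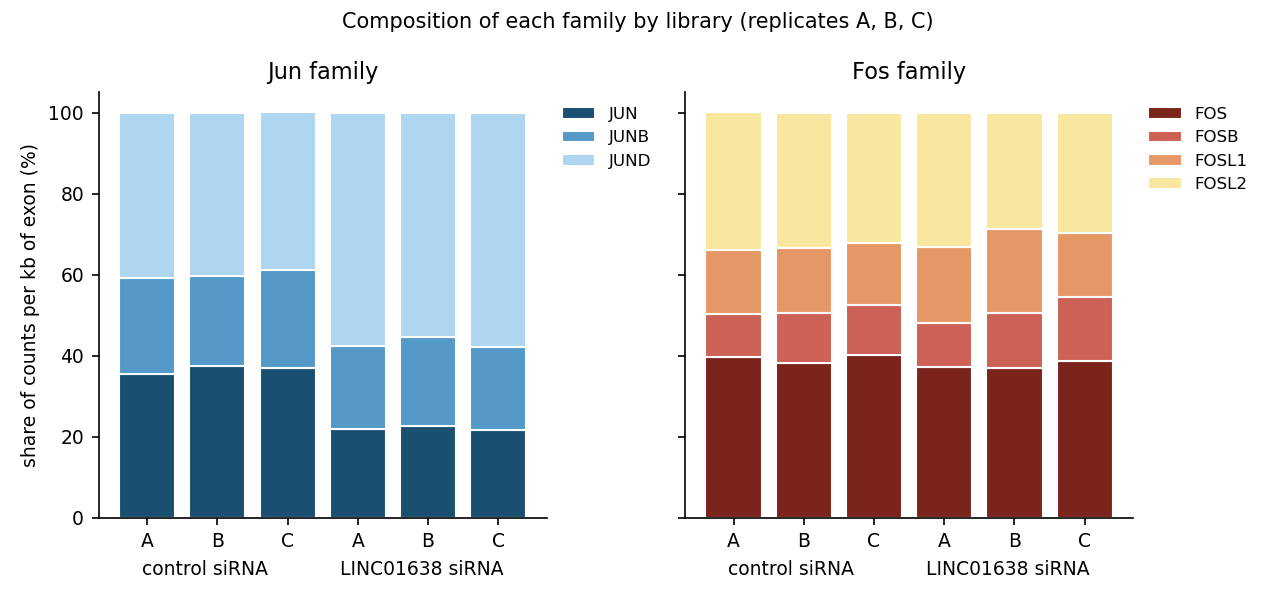
Share of each gene in the summed counts per kb of exon of its family, in percent, for each of the 6 libraries (replicates A, B and C of each group). In the Jun family the share of JUN (darkest) is 35.4% to 37.4% in control libraries and 21.6% to 22.6% with LINC01638 siRNA, while the mean shares of the 4 Fos genes differ by at most 2.61 percentage points between groups.

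The promoters of JUN and JUND are shown because these had the lowest and the highest fold change of the 3 Jun genes. RefSeq's table (GRCh38.p14) holds promoters, 250 bases before to 50 after the start, for 8 of the 10 factors. They were searched on both strands for the AP-1 site TGANTCA, the cyclic AMP element TGACGTCA, its variant TGACATCA, the EGR site GCGNGGGCG, the TATA motif TATAAA and the CArG box that SRF binds. No match overlapped another. Of all 35116 promoters in the table, 7.71% held TGANTCA, 1.85% TGACGTCA, 2.61% TGACATCA, 9.43% GCGNGGGCG, 11.5% TATAAA and 1.29% a CArG box. JUN (chr1:58783998-58784297, minus strand) held TGACATCA, the element through which c-Jun dimers are known to act on their own gene, at positions −67 to −60. JUND (chr19:18281573-18281872, minus strand) held TGACGTCA at −200 to −193. Each is given 5′ to 3′ with its match in capitals. A match describes the sequence and does not show binding, and a promoter without a match may hold the site outside the window searched.
JUN: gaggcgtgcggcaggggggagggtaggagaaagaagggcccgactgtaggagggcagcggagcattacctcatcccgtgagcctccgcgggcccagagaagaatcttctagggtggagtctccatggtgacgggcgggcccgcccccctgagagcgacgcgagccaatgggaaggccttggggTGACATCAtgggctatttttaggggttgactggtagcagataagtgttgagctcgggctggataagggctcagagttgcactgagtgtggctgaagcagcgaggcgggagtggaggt
JUND: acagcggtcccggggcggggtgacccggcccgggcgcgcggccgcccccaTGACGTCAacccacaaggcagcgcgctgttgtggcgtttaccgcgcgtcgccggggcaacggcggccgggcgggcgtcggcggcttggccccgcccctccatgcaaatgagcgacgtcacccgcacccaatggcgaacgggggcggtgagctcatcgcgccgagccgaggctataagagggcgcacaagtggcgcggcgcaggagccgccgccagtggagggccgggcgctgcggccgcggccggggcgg

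FOS, the prototype of the immediate early genes (ENSG00000170345.10, chr14:75278774-75282230, plus strand), was well expressed at 72 h, at 212, 214 and 231 CPM in the 3 controls and 136, 155 and 157 CPM with LINC01638 siRNA. The groups did not overlap. FOS fell by 32.0%, from 219 ± 10.1 to 149 ± 11.4 CPM (log2 change −0.56, with SE 0.0565, edgeR adjusted p = 6.32e-08). FOSL2 encodes Fra-2, which lacks the strong activation domain of c-Fos, and lies at chr2:28392448-28417312 on the plus strand (ENSG00000075426.12). It varied by 1.32% of its mean among control libraries and by 0.243% with LINC01638 siRNA. It stood at 402, 412 and 409 CPM in the 3 controls and at 268, 267 and 266.5 CPM with LINC01638 siRNA. FOSL2 fell by 34.5% (log2 change −0.61, with SE 0.0476, edgeR adjusted p = 1.62e-09).

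FOSL1 encodes Fra-1, the subunit linked to invasive growth (ENSG00000175592.9, chr11:65892049-65900573, minus strand), and stood at 49.5, 52.7 and 50.9 CPM in the 3 controls and at 39.5, 50.4 and 37.2 CPM with LINC01638 siRNA. Replicate B of the LINC01638 siRNA group lay within the control range, so the groups overlapped. FOSL1 passed the threshold as lower (log2 change −0.27, with SE 0.0958, edgeR adjusted p = 0.0334), but without LINC01638 siRNA replicate B the value was −0.42 (adjusted p = 9.43e-06). The call was lost when any of the other 5 libraries was left out (adjusted p between 0.0604 and 0.105), and also with library totals, the stricter filter and protein-coding genes only.

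FOSB, which like FOS carries a strong activation domain (ENSG00000125740.14, chr19:45467995-45475179, plus strand), varied by 12.5% of its mean among control libraries and by 22.7% with LINC01638 siRNA. It stood at 96.0, 117 and 123 CPM in the 3 controls and at 68.2, 97.7 and 108 CPM with LINC01638 siRNA, with replicate A the lowest of its group in both. The groups overlapped, and FOSB did not pass the test (log2 change −0.29, with 95% interval −0.84 to 0.26, edgeR adjusted p = 0.306). The interval includes both no change and a fall as large as that of FOS. Without LINC01638 siRNA replicate A the value was −0.12 (adjusted p = 0.282), and over all 6 such omissions it lay between −0.43 and −0.12 with FOSB never passing.

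Per kb of exon the 4 Fos genes summed to 172 ± 6.22 and 122 ± 8.66 CPM per kb, 28.8% lower with LINC01638 siRNA (n = 3 each, exact two-sided permutation p = 0.1). Their mean shares differed by at most 2.61 percentage points between groups: FOSL1 made up 15.7% ± 0.506 with control siRNA and 18.3% ± 2.44 with LINC01638 siRNA (n = 3 each, exact two-sided permutation p = 0.3), and FOS 39.4% ± 0.947 and 37.7% ± 0.977 (exact p = 0.2). The log2 ratio of FOSL1 to FOSL2 was higher by 0.33 (SE 0.136) without overlap between groups, and that of FOS to FOSL1 differed by −0.28 (SE 0.141) with overlap (exact two-sided permutation p = 0.1 and 0.2, n = 3 each). These values leaned on LINC01638 siRNA replicate B: without it the ratios differed by 0.20 and −0.17, and the FOSL1 share by 1.45 in place of 2.61 percentage points. With counts not divided by exon length the FOSL1 share differed by 1.24 points. Among the 8 factors with a promoter in the table, FOSL2 (chr2:28392608-28392907, plus strand) was the one that held the AP-1 site TGANTCA, shown in capitals, at 5 to 11 bases from its start.
FOSL2: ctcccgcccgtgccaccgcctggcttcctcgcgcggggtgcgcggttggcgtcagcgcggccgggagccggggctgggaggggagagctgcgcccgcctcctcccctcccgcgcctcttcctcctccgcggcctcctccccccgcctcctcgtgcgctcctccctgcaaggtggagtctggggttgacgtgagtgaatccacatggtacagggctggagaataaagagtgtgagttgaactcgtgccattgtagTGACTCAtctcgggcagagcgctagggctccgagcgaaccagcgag

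ATF3, a bZIP factor induced by many stresses that often represses its targets as a homodimer (ENSG00000162772.17, chr1:212565334-212620777, plus strand), was the member that went the other way. It stood at 26.9, 22.8 and 26.2 CPM in the 3 controls and at 43.6, 40.9 and 43.8 CPM with LINC01638 siRNA. Every LINC01638 siRNA library lay above every control library. ATF3 rose 1.69-fold, from 25.3 ± 2.22 to 42.8 ± 1.61 CPM (log2 change 0.76, with SE 0.0651, edgeR adjusted p = 6.51e-09). The log2 ratio of ATF3 to JUN went from −4.79 ± 0.165 to −2.63 ± 0.0839 (n = 3 each), a difference of 2.16 and the widest of the 7 pairs (exact two-sided permutation p = 0.1). ATF3 has 2 entries in the table, and the upstream one (chr1:212565157-212565456, plus strand) holds the same TGACATCA as JUN, at −123 to −116. It is shown with that match in capitals, as a sequence shared by a factor that rose and a factor that fell. Which start the ATF3 reads came from was not tested.
ATF3: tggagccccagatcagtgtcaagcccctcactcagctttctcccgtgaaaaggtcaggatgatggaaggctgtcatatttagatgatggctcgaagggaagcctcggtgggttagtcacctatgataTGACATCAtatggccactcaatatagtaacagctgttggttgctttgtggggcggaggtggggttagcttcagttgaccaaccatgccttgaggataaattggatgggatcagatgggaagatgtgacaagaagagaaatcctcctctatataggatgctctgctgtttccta

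EGR1 encodes a zinc finger activator that many growth signals induce, and lies at chr5:138465490-138469315 on the plus strand (ENSG00000120738.8). Per kb of exon it was the most abundant of the 10 factors in the control libraries. Its level was 774, 692 and 723 CPM in the 3 controls and 311, 288 and 266 CPM with LINC01638 siRNA. The highest LINC01638 siRNA library was below the lowest control by a wide margin. EGR1 fell by 60.5%, from 729.6 ± 41.6 to 288 ± 22.3 CPM (log2 change −1.34, with SE 0.0618, edgeR adjusted p = 1.32e-12). The log2 ratio of EGR1 to JUN averaged 0.0663 ± 0.126 in the controls and 0.124 ± 0.126 under LINC01638 siRNA (n = 3 each). The difference of 0.057 (SE 0.103, exact two-sided permutation p = 0.6) was smaller than the spread between replicates, and it changed sign without LINC01638 siRNA replicate A (−0.012).

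Within 250 bases before to 50 after the start, the EGR1 promoter (chr5:138465229-138465528, plus strand) was the only one of the 8 factors with CArG boxes. It was also the only one with the EGR site in that window. Sequence farther from the starts was not searched, so CArG boxes of other factors may lie outside it. The CArG boxes lie at −105 to −96 and −83 to −74 and the EGR site at −198 to −190, all in capitals.
EGR1: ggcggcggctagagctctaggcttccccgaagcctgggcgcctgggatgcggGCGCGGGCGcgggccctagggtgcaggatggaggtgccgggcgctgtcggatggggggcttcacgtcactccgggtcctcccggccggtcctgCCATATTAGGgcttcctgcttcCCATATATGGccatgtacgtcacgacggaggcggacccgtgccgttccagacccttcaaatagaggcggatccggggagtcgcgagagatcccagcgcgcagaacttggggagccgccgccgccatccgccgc

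EGR3, a relative with a very similar DNA-binding domain (ENSG00000179388.9), was the lowest of the factors. It was counted 448, 270 and 483 times under control siRNA and 148, 164 and 143 times under LINC01638 siRNA, or 8.41, 6.18 and 9.11 against 2.71, 3.16 and 2.38 CPM. The groups did not overlap although the control libraries varied by 19.3% of their mean. EGR3 fell by 65.2% (log2 change −1.53, with SE 0.142, edgeR adjusted p = 4.40e-08), the lowest value among the 10 factors.

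In the control libraries the order of levels per kb of exon was EGR1 (232 ± 13.3 CPM per kb), JUND (215 ± 4.12), JUN (197 ± 6.08), JUNB (126 ± 5.29), FOS (67.7 ± 3.13), FOSL2 (57.0 ± 0.753), FOSL1 (27.0 ± 0.855), FOSB (20.1 ± 2.52), ATF3 (6.26 ± 0.549) and EGR3 (1.63 ± 0.315). No neighbours in that order overlapped in their 3 libraries. That covers the spread between libraries only, and another choice of exon length could change the order. With LINC01638 siRNA the order began with JUND (193 ± 5.62 CPM per kb), followed by EGR1 (91.9 ± 7.09), JUN (74.6 ± 1.61) and JUNB (71.2 ± 3.35), and JUN and JUNB then overlapped. The order of the other 6 was the same in both groups. ATF3, the factor that rose, remained next to last, at 10.6 ± 0.397 CPM per kb.

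The factors lie on 7 chromosomes, and annotated genes beside them were examined next. Of 29 genes within 10 kb of a factor, 13 were tested, and 8 of these fell, 1 rose and 4 did not pass, where 29.6% of all genes tested fell and 26.3% rose. Among the 8, ENSG00000270640, a low transcript within FOSL2, lost its call under DESeq2, under library totals and in other settings. LINC01135, a long non-coding RNA that starts 801 bases from JUN on the opposite strand, fell from 3.35 ± 0.336 to 2.21 ± 0.303 CPM (log2 change −0.59, with edgeR adjusted p = 0.00157). Both neighbours tested beside FOSL1 fell, each with a lower value than the −0.27 of FOSL1: CCDC85B went from 94.6 ± 6.98 to 47.0 ± 4.39 CPM (log2 fold change −1.01) and FIBP from 58.4 ± 1.46 to 35.6 ± 1.82 CPM (−0.72). ERCC1, whose annotated span overlaps FOSB on the opposite strand, fell (−0.54), as did HOOK2 (−0.78), whose span covers JUNB, and IQCN (−0.57) beside JUND. PRDX2 beside JUNB did not pass (0.077, edgeR adjusted p = 0.216), although it did as higher with library totals (0.18). The gene that rose was RPL7P19, a ribosomal protein pseudogene downstream of EGR1, at 0.0556 ± 0.0312 and 0.258 ± 0.0144 CPM.

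Reads on the strand opposite to each factor stayed few, from 0.076% to 2.37% of the sense counts in every member but EGR3, which had at most 2 such reads per library. In CPM they were below all control libraries in all LINC01638 siRNA libraries for JUN, FOS, FOSL1, FOSL2 and EGR1 and above them for no member. At JUN they numbered 83, 89 and 108 in the 3 controls and 36, 69 and 46 with LINC01638 siRNA, and at EGR1 224, 153 and 194 against 70, 90 and 40. As a percentage of the sense counts, however, the groups overlapped for JUN, FOS, FOSL2 and EGR1. At JUN that percentage was 0.232, 0.286 and 0.289 in the 3 controls and 0.255, 0.491 and 0.291 with LINC01638 siRNA. For FOSL1 it was lower without overlap, at 1.56, 1.61 and 2.37 against 1.11, 1.41 and 1.48.

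A list of other bZIP and EGR relatives, together with the EGR co-repressors NAB1 and NAB2, held more genes that rose than fell. Of its 16 genes 14 were tested, and 7 rose, 5 fell and 2 did not pass (median log2 fold change 0.26, against −0.0014 for all genes). Thus 50% rose and 35.7% fell, where 26.3% of all genes tested rose and 29.6% fell. BATF and EGR4 were too low to test. The small Maf gene MAFG, which pairs with NRF2 and with AP-1 proteins, rose 2.21-fold, from 55.2 ± 2.25 to 122 ± 4.97 CPM (edgeR adjusted p = 9.64e-13). The other small Maf genes rose as well, MAFK 1.45-fold and MAFF 1.31-fold, and the large Maf gene MAF 1.70-fold. ATF2, a partner of c-Jun at cyclic AMP elements, rose 1.49-fold, and JDP2, a Jun dimerization protein that represses AP-1 sites, rose 1.38-fold. EGR2, a further EGR family gene, was named after its values were seen. It fell at low abundance, from 1.22, 1.12 and 0.924 to 0.147, 0.308 and 0.432 CPM (log2 change −1.86, with edgeR adjusted p = 5.07e-05).

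Kinases and factors upstream of these promoters changed in both directions: among 25 genes 12 fell and 10 rose, leaving 3 without a call (median 0.069). That is 48% lower and 40% higher, against 29.6% and 26.3% of all genes tested. Under scaling by library totals 8 fell and 13 rose. The ribosomal S6 kinases RPS6KA3 (RSK2), RPS6KA2 (RSK3) and RPS6KA4 (MSK2), which phosphorylate factors such as SRF and CREB or histones after ERK or p38 signals, fell 1.68-fold, 2.19-fold and 1.52-fold. MAPK3 (ERK1) fell 1.49-fold, from 87.1 ± 2.51 to 58.6 ± 0.424 CPM, and the SRF partner ELK4 fell 1.47-fold. MEF2A, a MADS-box factor that acts on the JUN promoter, rose 1.38-fold. SRF itself, named after its values were seen, stood at 72.8, 77.0 and 69.9 CPM in the 3 controls and 74.0, 81.1 and 75.2 CPM with LINC01638 siRNA and did not pass (log2 change 0.07, with edgeR adjusted p = 0.285).

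Regulators of the turnover of these RNAs and proteins were split evenly. Among 12 genes 4 fell and 4 rose, leaving 4 without a call (median −0.011), and 3 fell and 6 rose under scaling by library totals. The main shares, 33.3% lower and 33.3% higher, were near those of all genes tested (29.6% and 26.3%). The 3 tested genes of the ZFP36 family, whose proteins bind AU-rich elements and speed mRNA decay, all fell: ZFP36L2 1.59-fold, ZFP36L1 1.49-fold and ZFP36 1.17-fold, and under scaling by library totals their values were −0.57, −0.48 and −0.13. FBXW7, the ubiquitin ligase subunit that marks phosphorylated c-Jun for degradation, rose 1.43-fold, from 37.1 ± 1.59 to 53.0 ± 0.643 CPM. ELAVL1 (HuR), which stabilizes AU-rich mRNAs, rose 1.16-fold. COP1, another ubiquitin ligase for c-Jun, fell 1.18-fold, a call lost with library totals (log2 change −0.14, with edgeR adjusted p = 0.0613).

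Other immediate early genes fell more often than they rose. Among 31 genes 19 fell and 7 rose, leaving 5 without a call (median −0.20, against −0.0014 for all genes), and 15 fell and 7 rose under scaling by library totals. In the main fit 61.3% thus fell and 22.6% rose, against 29.6% and 26.3% of all genes tested. RHOB, a gene of the study's title that is itself an immediate early gene, fell 3.92-fold and KLF6, a zinc finger factor, 2.45-fold. DUSP1, the phosphatase that inactivates JNK and p38, fell from 827 ± 37.8 to 396 ± 16.5 CPM (edgeR adjusted p = 6.85e-12). IER2 fell 1.78-fold and MYC 1.65-fold. BTG2, an antiproliferative p53 target, rose 2.11-fold. DUSP6, the ERK phosphatase, was named after its values were seen: it rose from 10.8, 9.75 and 9.88 CPM in the 3 controls to 22.1, 32.9 and 25.9 CPM with LINC01638 siRNA (log2 fold change 1.40). CCN1, also named afterwards, remained abundant at 1219 and 1221 CPM in the group means and did not pass (log2 change 0.0025, SE 0.0595).

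Genes known as AP-1 targets fell and rose in equal numbers. Of 26 listed, 22 were tested, and 8 fell, 8 rose and 6 did not pass (median 0.15). Each direction held 36.4% of the tested targets, where 29.6% of all genes tested fell and 26.3% rose. With library totals 5 fell and 11 rose. VIM, the intermediate filament vimentin, fell 2.36-fold, and the cytokine genes IL11 and LIF fell 1.84-fold and 1.36-fold. HBEGF, an EGF receptor ligand, rose 1.36-fold. HMOX1, haem oxygenase, which NRF2 also regulates, rose from 32.2 ± 2.99 to 48.3 ± 2.78 CPM.

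Genes known as EGR1 targets were as mixed: among 16 genes 6 fell and 7 rose, leaving 3 without a call (median 0.022). As shares these are 37.5% and 43.8%, against 29.6% and 26.3% of all genes tested. The platelet-derived growth factor genes PDGFB and PDGFA fell 2.07-fold and 1.84-fold, PDGFB from 27.8, 29.9 and 30.4 CPM to 16.1, 12.5 and 14.1 CPM. The heparanase gene HPSE rose 1.85-fold, the adhesion receptor gene ICAM1 1.68-fold, from 153 ± 11.1 to 258 ± 13.0 CPM, and ID3 1.74-fold. FLT1, a VEGF receptor gene, rose from 7, 3 and 2 counts in the 3 controls to 88, 93 and 109 with LINC01638 siRNA. A list of known targets describes which genes changed and carries no measure of AP-1 or EGR1 activity here.

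**Figure D4:**
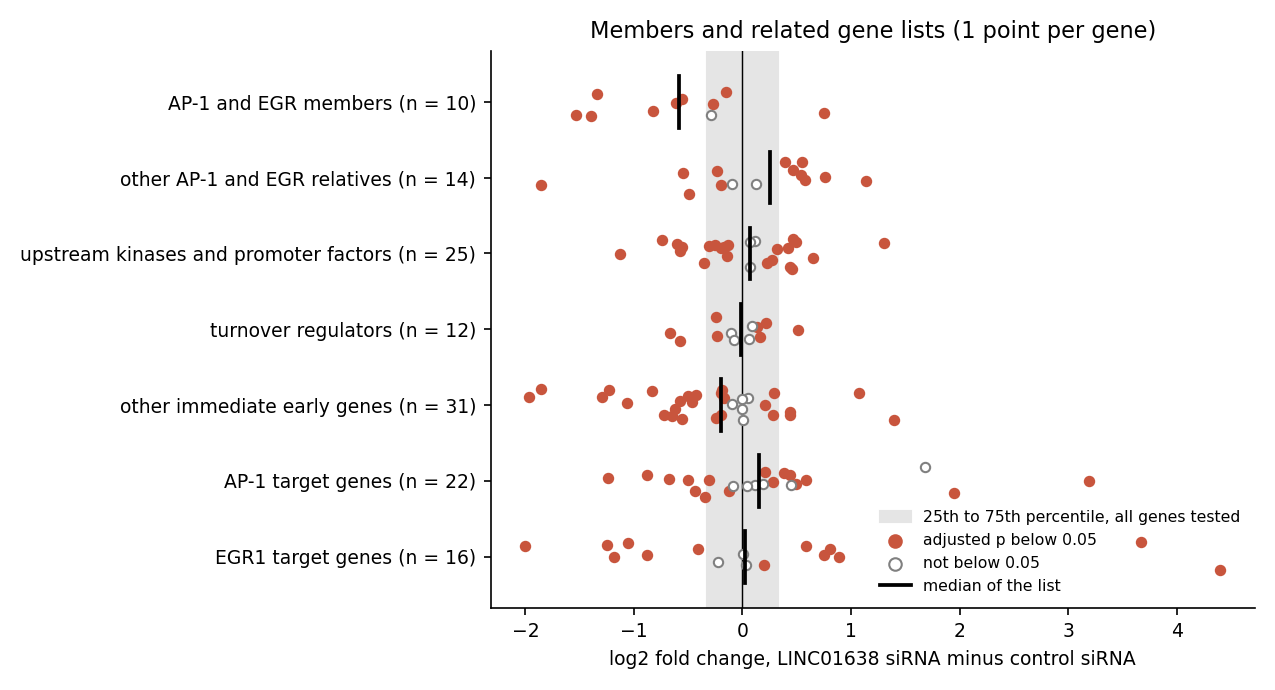
Log2 fold change of every tested gene of the 10 factors and of 6 related lists, 1 point per gene. Filled points passed an adjusted p of 0.05, vertical bars are medians, and the grey band is the 25th to 75th percentile of all genes tested. The medians are −0.58 for the factors and −0.20 for other immediate early genes, and lie between −0.011 and 0.26 for the other 5 lists.

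The genes most like JUN over the 6 libraries, by the distance between log2 levels centred on each gene's mean, were STMN3, CACNG4 and LINC00294 (distances 0.0982, 0.125 and 0.136 over 10767 other genes with a symbol and a mean of at least 5 CPM). STMN3 stood at 97.3, 102 and 97.7 CPM in the 3 controls and 37.2, 40.3 and 36.1 CPM with LINC01638 siRNA. RAC3, NMNAT1 and NLN were most like EGR1 (0.0817, 0.125 and 0.180). PDCL3, KRCC1 and PHLDA1 were most like FOSL1 (0.107, 0.113 and 0.118), and like it they were higher in replicate B than in A or C of the LINC01638 siRNA group. SNRNP27, ARID3B and STK3 were most like ATF3 (0.104, 0.111 and 0.112). With 2 groups of libraries such likeness mainly reflects the size of the difference between the groups.

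**Figure D5:**
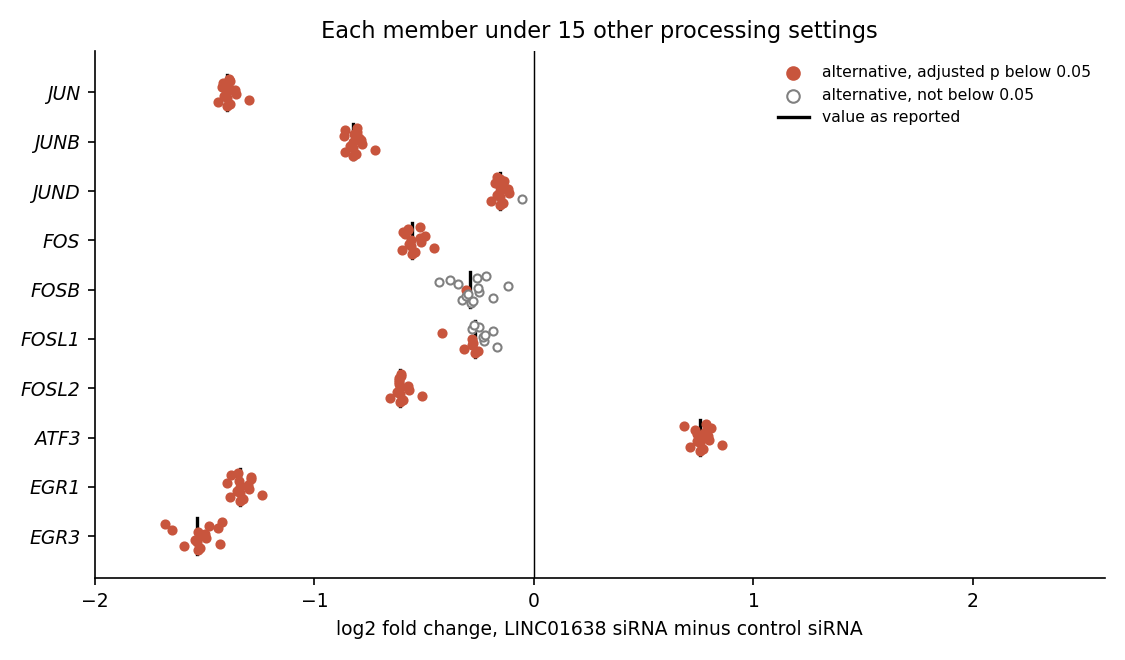
Log2 fold change of each factor under 15 other processing settings (points, filled where adjusted p was below 0.05) and as reported (bar). All 10 factors keep their sign, 7 keep their call in every setting, and JUND, FOSL1 and FOSB do not.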

How the data were processed

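The authors deposited, for each of the 6 libraries, a table of read counts per gene with columns for both strands together, the forward strand and the reverse strand. Per the labels' protocols, ribosomal RNA was depleted and directional libraries were sequenced as paired ends. The submitters' processing notes name STAR 2.7.10b, R 4.2.1 and the GRCh38 genome, and the annotation release is not given in the sources used here. Reverse-strand counts were used, since they held 93.3% to 93.5% of the counts on either strand. Rows for unmapped, ambiguous and no-feature reads were left out of library sizes and tests.

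Genes passing edgeR's filter (minimum count 10, minimum total 15; 18569 genes) were scaled with edgeR's TMM factors and tested with edgeR's quasi-likelihood test (edgeR 4.0.16, limma 3.58.1, R 4.3.3). Benjamini-Hochberg adjustment covered every gene tested, and calls were made at 0.05. SE and 95% intervals came from that fit. The test was tried on simulated data. Means are CPM over 3 libraries ± SD. Ratios and shares were compared by exact permutation tests (scipy 1.17.1). Gene positions and exon lengths came from GENCODE 29.

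Of each list the text names up to 6 genes past the threshold with the lowest p, and for 4 factors the 3 genes nearest in centred log2 CPM among those with a symbol and a mean of at least 5 CPM. Other names are marked as chosen after their values were seen. A gene that this rule names is not reported here. The members and lists were chosen with earlier results of these data known. Alternatives were DESeq2 1.42.0, limma-voom, other scalings, filters, strand and gene sets, a replicate block, and leaving out each library.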

Additional observations from a re-analysis of the deposited data

How the results depend on the processing

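Over 15 other settings, 6 of which left out a library, 140 of the 150 values of the 10 factors kept both direction and side of the threshold, 9 fell short of it, 1 newly passed it and 0 reversed. JUN stayed between −1.44 and −1.30, EGR1 between −1.40 and −1.24, EGR3 between −1.68 and −1.42 and ATF3 between 0.69 and 0.86 (log2 fold change). Between 6 and 9 factors fell, with 6 under library totals. AP-1 target genes that fell numbered 5 with library totals, against 8, and turnover regulators that rose numbered 2 in the counts made without regard to strand, against 4. The cause was not tested in either case. The log2 ratio of EGR1 to JUN ranged from −0.012 to 0.127 when 1 library was left out, the lowest without LINC01638 siRNA replicate A. ENSG00000258820, a low non-coding gene beside FOS, had a log2 fold change of 0.23, which ranged from −0.10 (without control replicate A) to 0.58 when 1 library was left out. EGR3 has the fewest counts of the 10 factors.

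The replicate letters are shared by the groups, but same-letter libraries did not deviate together (correlations of deviations −0.0753, −0.0203 and −0.0177). With the letter as a replicate block 9 factors fell, FOSB among them (−0.31, edgeR adjusted p = 0.000191), and 5286 genes fell and 4676 rose over all genes, against 5503 and 4887.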

Other observations

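Several AP-1 target genes, picked here after their values were seen, were highest in LINC01638 siRNA replicate B, the library in which FOSL1 was also highest of its group (50.4 CPM). MMP1, interstitial collagenase, had 311, 415 and 349 counts in the 3 controls and 668, 2291 and 818 with LINC01638 siRNA. Every LINC01638 siRNA library was above every control, but MMP1 did not pass (log2 fold change 1.68, SE 0.686, edgeR adjusted p = 0.107). MMP3, stromelysin, rose from 4, 13 and 6 counts to 62, 112 and 62 (edgeR adjusted p = 8.28e-06). SPP1, the secreted phosphoprotein osteopontin, rose from 27, 31 and 37 counts to 98, 192 and 116. CCND1, cyclin D1, rose from 26.8, 26.1 and 27.6 CPM to 31.7, 43.8 and 29.9 CPM (edgeR adjusted p = 0.0434). What sets replicate B apart for these genes was not tested.

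The 4 genes of this paragraph were also picked after their values were seen. PLAU and PLAUR, from the same list, changed in different directions: PLAU, urokinase, fell from 14.9, 17.7 and 17.2 CPM to 10.7, 13.9 and 10.7 CPM, and PLAUR, its receptor, rose from 62.7, 71.5 and 69.3 CPM to 83.0, 83.0 and 80.8 CPM. NAB1 and NAB2, co-repressors that bind EGR proteins, fell by less than EGR1, with log2 fold changes of −0.23 and −0.20.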
